A study of Mus musculus with 11 samples.

Results

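RNA-Seq values of 31 macrophage and antigen presentation genes were examined in mouse DRGs, the sensory ganglia beside the spinal cord. The genes were a given list of symbols, chosen with earlier results of these data known. The shares over all genes that are set beside them are therefore descriptions and not tests of the list. The symbols were matched by name to the table of 36670 genes, and each of the 31 symbols named 1 row. The list was made up of 7 roles: core macrophage identity, resident and perivascular macrophages, complement C1q, Tyrobp and Fc receptor signalling, MHC class II presentation, monocyte and myeloid genes, and microglial genes. The 11 libraries, 1 per mouse, fell into 4 groups by genotype and treatment. Of the WT mice, 3 were controls and 3 had received paclitaxel (PTX) 4 weeks earlier; of the mice lacking *Gpr37l1* (KO), 3 were controls and 2 had received it 4 weeks earlier. PTX, a drug used against tumours, injures sensory neurons and causes pain. *Gpr37l1* encodes an orphan GPCR of satellite glial cells (SGCs). The KO mice of the study were of the line B6;129S5-*Gpr37l1*tm1Lex/Mmucd, a germline deletion that is present in all cells, and the study used adult mice with WT littermates. The labels call the untreated mice controls and do not say whether they were injected. Their library names carry the letter V. For RNA-Seq of mouse DRGs, the paper names noninjured naive mice. In each group, replicate 3 was labelled female and the others male, so sex and this number cannot be told apart.

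Macrophages of the DRG lie between the neurons and along the vessels, and they take up debris and present antigen. They depend on CSF1R, the receptor for the growth factors CSF1 and IL34, and on PU.1, the transcription factor that *Spi1* encodes. C1QA, C1QB and C1QC assemble into C1q, the recognition unit of the classical complement pathway, which tissue macrophages secrete. MHC class II molecules are pairs of alpha and beta chains that display peptides to CD4+ T cells. Their loading needs the invariant chain, encoded by *Cd74*, and the protease cathepsin S, encoded by *Ctss*.

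The estimated counts summed to 52735648 to 80348732 per library, and both KO PTX libraries were near the lower end (54914928 and 56747335). *Gpr37l1* was at 27.6 to 35.7 FPKM in WT controls, 14.6 to 31.7 in WT PTX mice, 0.21 to 0.29 in KO controls and 0.60 and 1.15 in KO PTX mice 2 and 3. The KO libraries were lower than the WT libraries by edgeR (log2 fold change of -7.03 in controls, adjusted p = 4.53e-05, and of -4.79 after PTX, adjusted p = 0.00173). KO control 3, labelled female, had neither *Xist* (0.05 FPKM, against 8.12 to 9.13 in the other libraries labelled female) nor the Y-linked *Ddx3y* (0.02 FPKM), so it did not match its label by *Xist*. The DRG label was checked by its markers: the summed FPKM of 9 sensory neuron genes was 2702 to 3971 and that of 6 SGC genes was 1034 to 1470 per library. Other tissues were carried along unevenly. Skeletal muscle markers (7 genes) summed to 2.73 to 497 FPKM, and spinal cord markers (9 genes) to 2.27 to 9.38 FPKM in the other 9 libraries but 9.92 and 23.3 FPKM in KO PTX mice 2 and 3. T and NK cell markers (7 genes) summed to 0.37 to 0.84 FPKM in 10 libraries and to 4.06 FPKM in KO PTX 3.

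The *C1q* genes and the class II genes are each neighbours in the genome, and the promoters of 4 of them are shown because the values of these 2 sets are set side by side in what follows. In mm10, *C1qb* (chr4:136880129-136886187), *C1qc* (chr4:136889804-136893065) and *C1qa* (chr4:136895917-136898803) lie side by side on the minus strand. *H2-Ab1* (chr17:34257689-34269419), *H2-Aa* (chr17:34282744-34287823) and *H2-Eb1* (chr17:34305867-34316674) lie together in the MHC. RefSeq promoters of GRCm38.p6, from 250 bases before to 50 bases after the transcription start, were at hand for 20 of the 31 genes. The letters GAGGAA, the core of sites bound by PU.1, were searched on both strands and are in capitals in the *C1qb* and *C1qc* promoters, at 30 bases before the start (same strand) and 193 bases before it (other strand, read as TTCCTC). The letters CCAAT, the core of the Y box of class II promoters, are in capitals in the *H2-Aa* and *H2-Eb1* promoters (ATTGG on the other strand). The sequences are written 5′ to 3′ on the strand of the gene.
C1qb, chr4:136886151-136886450 (minus strand): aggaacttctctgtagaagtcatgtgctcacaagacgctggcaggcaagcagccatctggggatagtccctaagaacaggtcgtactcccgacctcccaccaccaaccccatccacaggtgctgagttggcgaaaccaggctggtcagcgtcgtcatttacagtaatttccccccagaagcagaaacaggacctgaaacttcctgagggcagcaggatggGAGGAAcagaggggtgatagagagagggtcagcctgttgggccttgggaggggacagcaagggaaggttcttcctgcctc
C1qc, chr4:136892865-136893164 (minus strand): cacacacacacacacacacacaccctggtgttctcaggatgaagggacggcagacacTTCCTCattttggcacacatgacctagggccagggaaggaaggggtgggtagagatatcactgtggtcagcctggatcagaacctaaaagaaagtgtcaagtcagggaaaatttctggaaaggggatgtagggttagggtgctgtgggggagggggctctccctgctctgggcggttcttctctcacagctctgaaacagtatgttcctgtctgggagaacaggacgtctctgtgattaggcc
H2-Aa, chr17:34287774-34288073 (minus strand): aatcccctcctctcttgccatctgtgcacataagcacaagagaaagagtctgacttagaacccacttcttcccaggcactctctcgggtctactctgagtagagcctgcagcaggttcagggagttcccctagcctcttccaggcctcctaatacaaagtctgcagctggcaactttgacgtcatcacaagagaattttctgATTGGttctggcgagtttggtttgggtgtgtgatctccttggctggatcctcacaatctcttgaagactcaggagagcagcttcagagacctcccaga
H2-Eb1, chr17:34305617-34305916 (plus strand): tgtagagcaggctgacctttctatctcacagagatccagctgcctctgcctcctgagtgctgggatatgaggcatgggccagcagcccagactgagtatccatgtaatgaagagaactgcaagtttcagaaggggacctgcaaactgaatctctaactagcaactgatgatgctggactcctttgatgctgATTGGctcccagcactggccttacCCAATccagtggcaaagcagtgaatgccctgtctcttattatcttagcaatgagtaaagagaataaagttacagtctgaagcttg

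GAGGAA on either strand was found in 11 of the 20 promoters (55.0%), namely those of *Aif1*, *Cd68*, *Itgam*, *Laptm5*, *Mrc1*, *C1qb*, *C1qc*, *Trem2*, *Fcgr3*, *Ctss* and *Siglech*, and in 28.3% of the 32851 promoters of the table. CCAAT on either strand was found in 9 of the 20 (45.0%) and in 37.4% of all promoters. These letters are short, so a match is a description of the sequence and not a bound site.

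In WT controls, *Lyz2*, which encodes the lysozyme of macrophages and neutrophils, and *Cd74* had the highest levels of the list. *Lyz2* was at 37.9 ± 3.67 FPKM and *Cd74* at 37.3 ± 5.86 FPKM (SD, n = 3 each), which do not differ beyond their spread. *Ly86*, whose product binds a Toll-like receptor homologue, followed at 18.1 ± 2.52 FPKM. *H2-Eb1*, *C1qb* and *C1qa* were at 11.9 ± 1.53, 11.6 ± 2.09 and 11.1 ± 2.67 FPKM, again within their spread. *Ctss* (8.64 ± 2.42 FPKM), *H2-Ab1* (7.77 ± 1.03), *H2-Aa* (7.29 ± 0.31) and *C1qc* (6.00 ± 0.45) came next (SD, n = 3 each). At the other end, *Trem2*, a lipid receptor of macrophages and microglia, had 0.25 ± 0.06 FPKM and *Siglech*, a marker of microglia and plasmacytoid dendritic cells, 0.22 ± 0.02 FPKM. These 2 genes had a mean below 0.5 FPKM over all libraries and were not tested, which left 29 genes. *Itgam* and *Spi1* passed this minimum only through the WT controls, where they were highest: without those libraries their means were 0.44 and 0.49 FPKM, and 27 genes passed.

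WT controls gave the highest of the 11 values for 21 of the 31 genes, and WT PTX mice for 0. Over all 15087 genes tested, the highest value was in a WT control for 40.9% and in a WT PTX mouse for 21.4%. The lowest value was in a WT PTX mouse for 16 of the 31 genes, against 20.6% of all genes, and in a KO PTX mouse for 11, against 19.7%, of which KO PTX 2 had 9 and KO PTX 3 had 2. Of the 27 genes that passed the minimum without the WT controls, 18 were highest in a WT control and 0 in a WT PTX mouse, 12 were lowest in a WT PTX mouse and 11 in a KO PTX mouse. All 3 WT controls were above all 8 other libraries for *Csf1r*, *Adgre1*, *C1qb* and *C1qc*, that is 4 of 29 genes, against 1.28% of the 15087 genes tested. The heat map of the list by library shows this pattern.

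**Figure D1:**
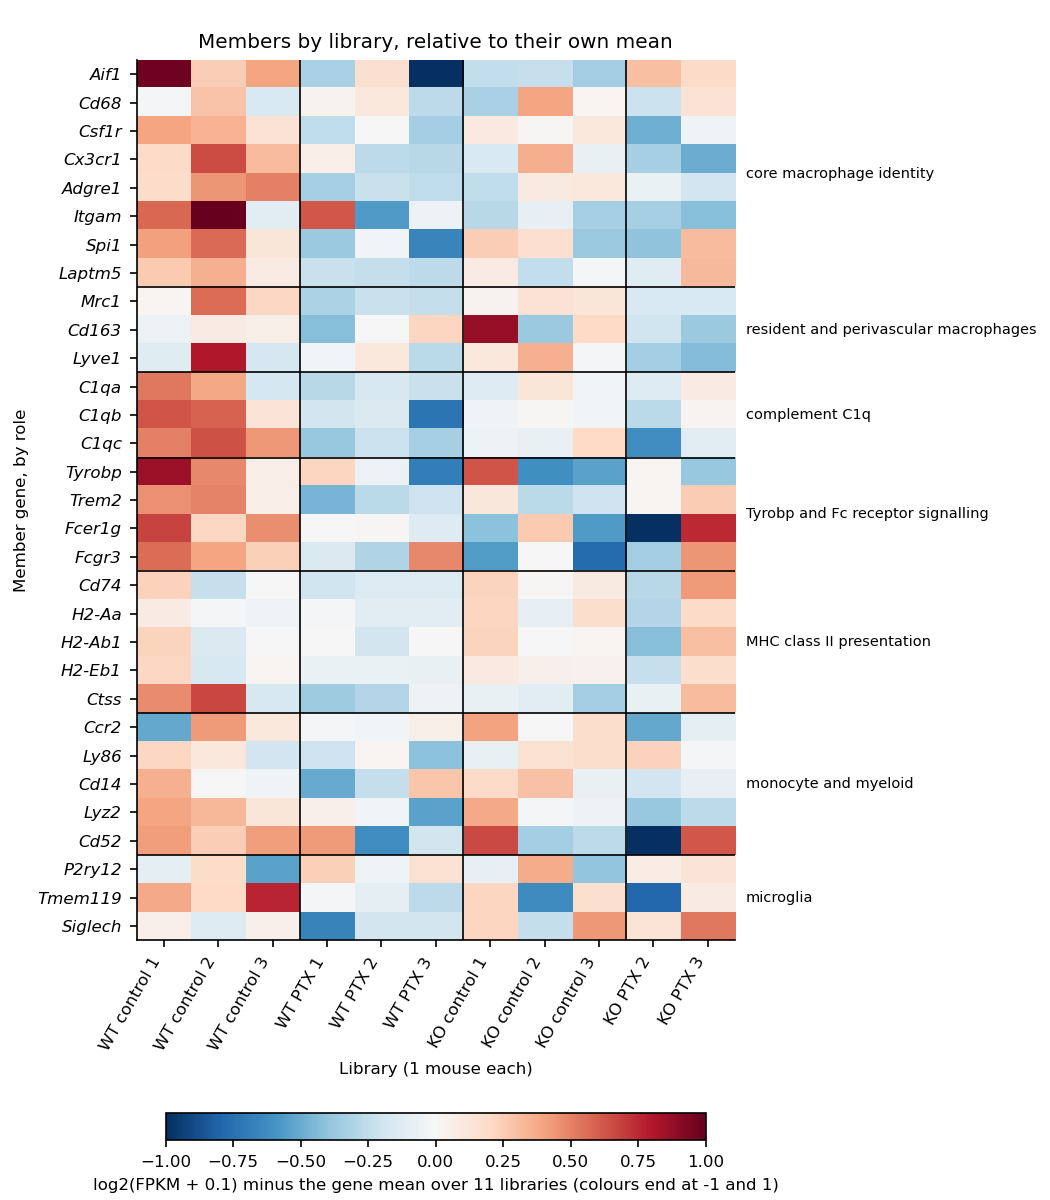
Level of each of the 31 genes in each of the 11 libraries, as log2(FPKM + 0.1) minus the mean of that gene over all libraries, in rows by role and columns by group. Red is above and blue below the mean of the gene; WT controls hold the highest value for 21 of the 31 genes (40.9% of all genes tested) and WT PTX mice for 0 (21.4%).

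To ask how these genes stood 4 weeks after PTX in WT mice, WT PTX libraries were compared with WT controls. The C1q genes, the macrophage receptors *Csf1r*, *Adgre1* and *Mrc1*, and *Lyz2* had lower means after PTX, by 1.37- to 1.81-fold, whereas the 4 class II genes outside *Ctss* differed by log2 fold changes of -0.09 to -0.18. With edgeR, 0 of the 29 genes had an adjusted p under 0.05 (0.00663% of all genes tested, that is 1 gene, did), and the smallest adjusted p of the list was 0.203. At an unadjusted p under 0.05, 14 of 29 genes were lower and 0 higher, against 6.87% of all genes that were lower. With DESeq2, 6 genes (*C1qc*, *C1qb*, *Adgre1*, *Mrc1*, *Csf1r* and *Lyz2*) had an adjusted p under 0.05, against 2.05% of all genes. The median log2 fold change of the 29 genes was -0.49, against -0.01 over all genes, and 28 of 29 were negative. Over the 27 genes that passed without the WT controls, the median was -0.45 with 13 at an unadjusted p under 0.05, and without a minimum it was -0.48 over 31 genes. All 3 WT PTX libraries were below all 3 controls for 12 of 29 genes, against 7.37% of all genes, and for 11 of the 27 genes that passed without the WT controls. For 3 against 3 libraries, the exact two-sided permutation test of FPKM cannot give a p below 0.10, which was the value for each of these 12. In bulk tissue, fewer macrophages and less RNA per macrophage cannot be told apart.

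Each of the 3 C1q genes had a lower mean in WT PTX mice than in WT controls. *C1qc* was at 5.90, 6.50 and 5.61 FPKM in WT controls 1 to 3, 3.16, 3.55 and 3.27 in WT PTX mice, 4.00, 3.93 and 4.76 in KO controls and 2.66 and 3.85 in KO PTX mice 2 and 3. *C1qb* was at 12.9, 12.6 and 9.15 FPKM in WT controls, 7.33, 7.55 and 4.99 in WT PTX mice, 8.16, 8.43 and 8.20 in KO controls and 6.89 and 8.49 in KO PTX mice. *C1qa* was at 13.24, 11.99 and 8.11 FPKM in WT controls, 7.54, 8.17 and 7.86 in WT PTX mice, 8.37, 9.97 and 9.01 in KO controls and 8.38 and 9.73 in KO PTX mice. For *C1qc* and *C1qb* the WT controls stood above every other library, whereas for *C1qa* WT control 3 fell within the range of the other groups. *C1qc* had a log2 fold change of -0.86 ± 0.15 (SE) after PTX in WT mice (edgeR adjusted p = 0.203). Its adjusted p was 0.000219 with DESeq2, and the alternatives gave 0.000219 to 0.685. *C1qb* had -0.81 ± 0.17 (edgeR adjusted p = 0.203, DESeq2 adjusted p = 0.00205, with 0.00205 to 0.685 over the alternatives), and *C1qa* had -0.49 ± 0.18 (unadjusted p = 0.0179 by edgeR).

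Core macrophage genes covered a receptor for growth factors, adhesion and chemokine receptors, and lysosomal and cytoskeletal proteins. *Csf1r* was at 5.18, 5.01 and 4.33 FPKM in WT controls, 3.26, 3.93 and 3.07 in WT PTX mice, 4.18, 3.95 and 4.22 in KO controls and 2.76 and 3.82 in KO PTX mice. Every WT control was above every other library. Its log2 fold change after PTX in WT mice was -0.51 ± 0.14 (SE; edgeR adjusted p = 0.238, DESeq2 adjusted p = 0.0342, the lowest of the alternatives, which reached 0.685). *Csf1r* overlaps *Hmgxb3* on the other strand. *Adgre1*, which encodes the macrophage antigen F4/80, was at 1.69, 2.04 and 2.13 FPKM in WT controls, 1.15, 1.25 and 1.22 in WT PTX mice, 1.22, 1.58 and 1.59 in KO controls and 1.40 and 1.28 in KO PTX mice. Its WT controls were above all other libraries, and its log2 fold change in WT mice was -0.70 ± 0.16 (SE; edgeR adjusted p = 0.211, DESeq2 adjusted p = 0.0136, with 0.0136 to 0.685 over the alternatives). *Laptm5*, a lysosomal membrane protein of blood-derived cells, was at 3.16, 3.37 and 2.78 FPKM in WT controls, 2.23, 2.20 and 2.16 in WT PTX mice, 2.78, 2.19 and 2.59 in KO controls and 2.39 and 3.29 in KO PTX mice. Here the WT groups did not overlap, and KO PTX 3 reached the level of the WT controls (log2 fold change in WT mice of -0.50 ± 0.15, unadjusted p = 0.00698 by edgeR).

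*Aif1*, which encodes the actin-binding protein IBA1, was at 1.67, 0.97 and 1.09 FPKM in WT controls, 0.62, 0.91 and 0.32 in WT PTX mice, 0.66, 0.67 and 0.61 in KO controls and 1.01 and 0.93 in KO PTX mice. It was thus lower after PTX in all 3 WT mice and higher in both KO mice. It had the largest log2 fold change of the list in WT mice, -1.04 ± 0.32 (SE; unadjusted p = 0.00871 by edgeR), on counts of 31 to 149 per library. *Cx3cr1*, the fractalkine receptor, was at 1.64, 2.30 and 1.80 FPKM in WT controls, 1.50, 1.17 and 1.16 in WT PTX mice, 1.27, 1.86 and 1.35 in KO controls and 1.11 and 0.98 in KO PTX mice. Both PTX groups were below their controls without overlap, with log2 fold changes of -0.59 ± 0.19 in WT mice and -0.48 ± 0.22 in KO mice. The gene model of *Cx3cr1* spans several neighbours on both strands (*Gorasp1*, *Csrnp1* and *Xirp1* among them), and how reads were shared between them is uncertain. *Spi1* was at 0.59 to 0.84 FPKM in WT controls, 0.30 to 0.52 in WT PTX mice, 0.39 to 0.65 in KO controls and 0.38 and 0.69 in KO PTX mice. *Spi1* reached the minimum for testing only through the WT controls, so its log2 fold change in WT mice (-0.86 ± 0.31) is a description. *Cd68*, a lysosomal glycoprotein, was at 2.08 to 2.84 FPKM in WT controls and 1.92 to 2.50 in WT PTX mice, which overlap, with a log2 fold change of -0.08 ± 0.24.

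Among genes of resident and perivascular macrophages, *Mrc1*, the mannose receptor CD206, was at 1.80, 2.66 and 2.06 FPKM in WT controls, 1.41, 1.51 and 1.49 in WT PTX mice, 1.82, 1.97 and 1.94 in KO controls and 1.59 and 1.59 in KO PTX mice. All 5 PTX libraries were below all 6 controls. Its log2 fold change in WT mice was -0.57 ± 0.14 (SE; edgeR adjusted p = 0.222, DESeq2 adjusted p = 0.0183, with 0.0183 to 0.685 over the alternatives). *Lyve1*, a hyaluronan receptor, was at 1.93, 3.76 and 1.87 FPKM in WT controls, 2.07, 2.28 and 1.74 in WT PTX mice, 2.28, 2.73 and 2.09 in KO controls and 1.65 and 1.54 in KO PTX mice. WT control 2 was far above the other 10 libraries for *Lyve1*, and the WT groups overlapped. *Cd163*, the haemoglobin scavenger receptor, was at 0.65 to 1.07 FPKM in the libraries other than KO control 1, which had 1.75 FPKM. Its log2 fold change in WT mice was -0.09 ± 0.31.

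**Figure D2:**
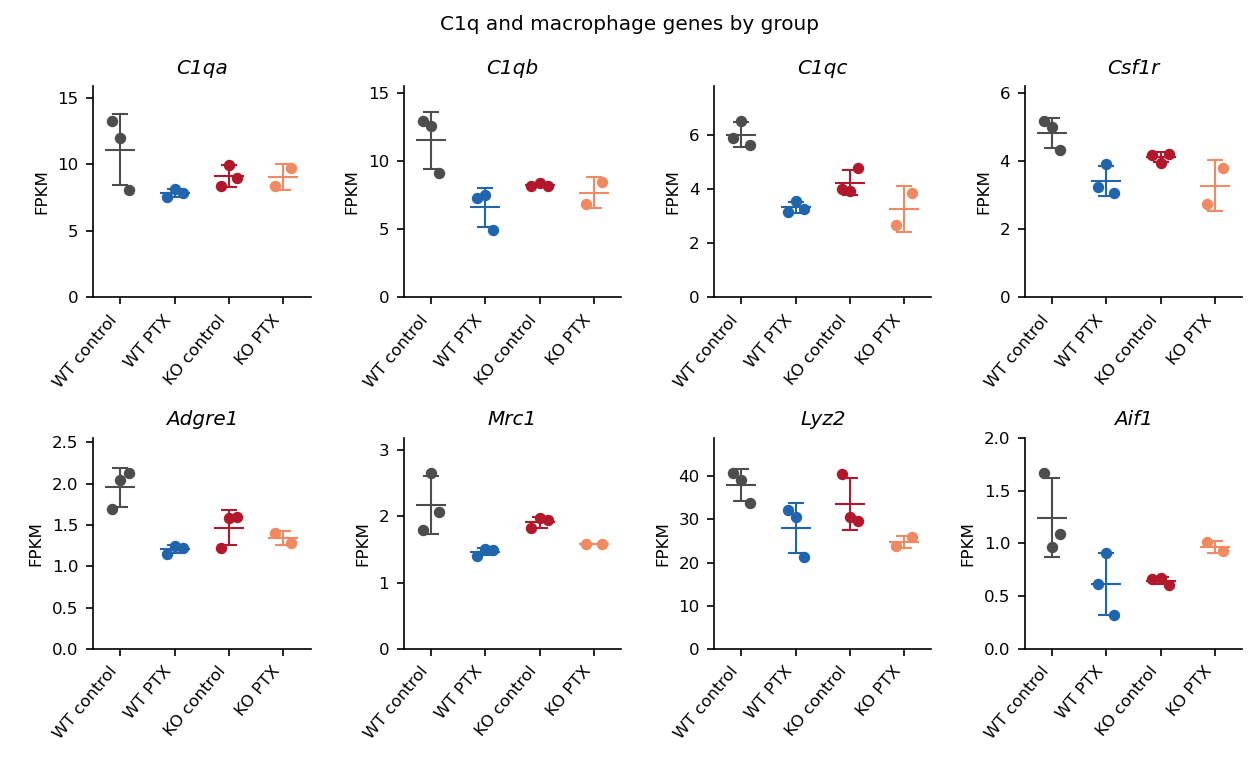
FPKM of the C1q genes, *Csf1r*, *Adgre1*, *Mrc1*, *Lyz2* and *Aif1* in the 4 groups, 1 point per mouse, with the mean as a horizontal bar and the SD as the error bar (n = 3, 3, 3 and 2). The 3 WT controls lie above all other libraries for *C1qb*, *C1qc*, *Csf1r* and *Adgre1*, and *Aif1* is lower after PTX in WT and higher in KO mice.

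The adaptor and Fc receptor genes pass signals from the cell surface into macrophages. *Tyrobp*, the adaptor DAP12 that signals for TREM2, was at 6.83, 5.24 and 3.89 FPKM in WT controls, 4.33, 3.57 and 2.27 in WT PTX mice, 5.81, 2.40 and 2.53 in KO controls and 3.77 and 2.84 in KO PTX mice. Its WT groups overlapped, and its log2 fold change in WT mice was -0.66 ± 0.29 (SE; unadjusted p = 0.0475 by edgeR). *Trem2*, with 42 to 119 counts per library, was at 0.19 to 0.29 FPKM in WT controls and 0.10 to 0.14 in WT PTX mice. *Fcer1g*, the common gamma chain of Fc receptors, was at 2.40 to 3.35 FPKM in WT controls and 1.88 to 2.08 in WT PTX mice but at 0.80 and 3.52 in KO PTX mice 2 and 3, the lowest and the highest value of all libraries. *Fcgr3*, an activating IgG receptor, was at 2.59, 2.29 and 2.05 FPKM in WT controls, 1.55, 1.38 and 2.44 in WT PTX mice, 1.14, 1.73 and 0.97 in KO controls and 1.33 and 2.37 in KO PTX mice. The KO controls were all below the WT controls, whereas the PTX groups overlapped with both.

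The genes of antigen presentation had smaller estimates in WT mice, *Ctss* apart. *Cd74* was at 43.3, 31.6 and 37.1 FPKM in WT controls, 32.3, 33.6 and 33.6 in WT PTX mice, 43.1, 37.3 and 39.5 in KO controls and 30.5 and 49.7 in KO PTX mice 2 and 3. The groups overlapped, and the 2 KO PTX mice enclosed all other libraries. In WT mice its log2 fold change after PTX was -0.18 ± 0.16 (SE), and it ranged from -0.27 without WT control 2 to -0.0043 without WT control 1. The alpha chain gene *H2-Aa* (-0.09 ± 0.12), the beta chain genes *H2-Ab1* (-0.11 ± 0.17) and *H2-Eb1* (-0.11 ± 0.12) had estimates no larger than their SE, and without WT control 1 those of *H2-Ab1* and *H2-Eb1* turned to 0.04 and 0.03. *H2-Eb1* overlaps the gene *Gm20513* on the other strand. For each of *H2-Aa*, *H2-Ab1* and *H2-Eb1*, KO PTX 2 had the lowest value of all libraries (5.89, 5.60 and 9.93 FPKM), and KO PTX 3 was at 8.27, 9.33 and 13.2 FPKM. *Ctss* was at 9.31, 10.7 and 5.96 FPKM in WT controls, 5.20, 5.42 and 6.43 in WT PTX mice, 6.31, 6.14 and 5.23 in KO controls and 6.33 and 8.34 in KO PTX mice. WT controls 1 and 2 were above all other libraries, WT control 3 was not, and the log2 fold change in WT mice was -0.59 ± 0.22 (unadjusted p = 0.0210 by edgeR, and -0.93 without replicate 3). In WT mice, as the plot of summed levels shows, the summed FPKM of C1q genes was 22.9 to 32.1 against 16.1 to 19.3 after PTX. That of class II genes, *Ctss* included, was 66.7 to 82.6 against 63.3 to 65.3. Each of these class II genes taken alone overlapped between the WT groups.

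**Figure D3:**
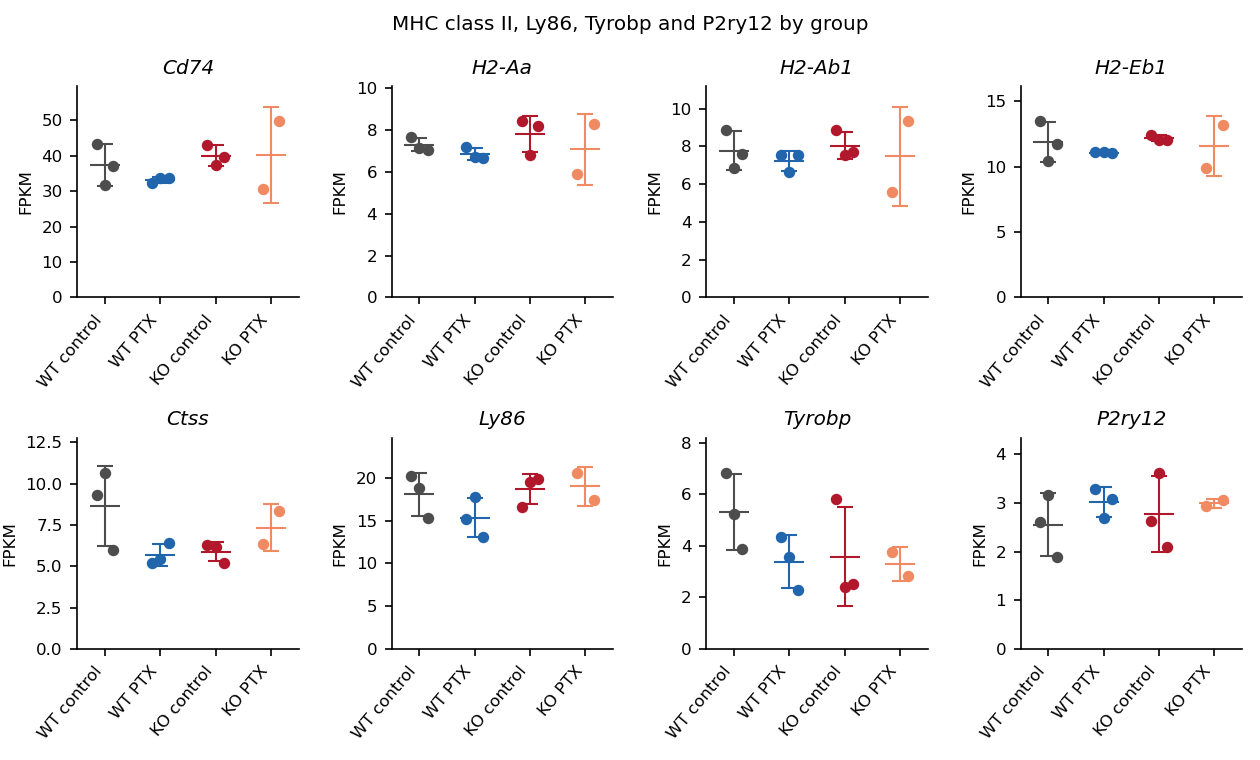
FPKM of the class II genes *Cd74*, *H2-Aa*, *H2-Ab1*, *H2-Eb1* and *Ctss*, and of *Ly86*, *Tyrobp* and *P2ry12*, in the 4 groups, 1 point per mouse, with the mean as a horizontal bar and the SD as the error bar (n = 3, 3, 3 and 2). For *Cd74* the 2 KO PTX mice, at 30.5 and 49.7 FPKM, enclose all other libraries.

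Of the monocyte and myeloid genes, *Lyz2* was at 40.8, 39.2 and 33.8 FPKM in WT controls, 32.1, 30.5 and 21.3 in WT PTX mice, 40.4, 30.6 and 29.7 in KO controls and 23.8 and 25.8 in KO PTX mice. Both PTX groups were below their own controls without overlap. Its log2 fold change was -0.45 ± 0.13 in WT mice (SE; edgeR adjusted p = 0.244, DESeq2 adjusted p = 0.0365, with 0.0365 to 0.685 over the alternatives) and -0.37 ± 0.15 in KO mice. *Lyz2* is also a gene of neutrophils, whose 6 markers summed to 28.2 to 79.6 FPKM in WT controls, 9.63 to 51.3 in WT PTX mice, 7.60 to 71.6 in KO controls and 9.57 to 10.8 in KO PTX mice. Their part in the *Lyz2* difference was not tested. *Ly86* was at 20.2, 18.9 and 15.3 FPKM in WT controls, 15.2, 17.7 and 13.1 in WT PTX mice, 16.7, 19.5 and 19.8 in KO controls and 20.6 and 17.4 in KO PTX mice, with overlap between the WT groups. *Ccr2*, the chemokine receptor of inflammatory monocytes, was at 0.50 to 1.05 FPKM over all libraries and had a log2 fold change of -0.06 ± 0.25 in WT mice. *Cd14*, a co-receptor for endotoxin, and *Cd52*, a glycoprotein of leukocytes, had -0.27 ± 0.27 and -0.44 ± 0.52. *Cd52* ranged from 0.36 FPKM in KO PTX 2 to 1.82 FPKM in KO control 1 and overlaps *Crybg2* on the other strand.

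The genes listed as microglial had estimates of either sign in WT mice, and which cells held their RNA in these ganglia was not tested. *P2ry12*, the ADP receptor of microglia, was at 2.60, 3.17 and 1.88 FPKM in WT controls, 3.29, 2.69 and 3.09 in WT PTX mice, 2.62, 3.62 and 2.09 in KO controls and 2.93 and 3.05 in KO PTX mice. It was the 1 gene of the 29 with a positive log2 fold change in WT mice, 0.27 ± 0.21 (SE), which ranged from 0.028 without replicate 3 to 0.41 without WT PTX 2, with overlap between the groups, and it overlaps *Med12l* on the other strand. *Tmem119* was at 2.11, 1.86 and 2.79 FPKM in WT controls, 1.58, 1.49 and 1.32 in WT PTX mice, 1.88, 1.00 and 1.80 in KO controls and 0.89 and 1.70 in KO PTX mice, and its WT groups did not overlap (-0.59 ± 0.26, unadjusted p = 0.0497 by edgeR, and -0.39 without WT PTX 3). *Siglech* stayed at 0.10 to 0.36 FPKM, with 30 to 93 counts per library.

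Markers of other cells were set beside the WT comparison. In WT PTX mice against WT controls, the median log2 fold change was -2.79 for 6 of 7 skeletal muscle markers tested, -1.06 for 5 of 6 neutrophil markers, -0.49 for the 5 red cell markers and -0.71 for 4 of 9 spinal cord markers. At an unadjusted p under 0.05 by edgeR, 0 muscle, 0 neutrophil and 0 red cell markers differed, and the 1 spinal cord marker that did, *Aqp4*, was higher (0.64 ± 0.19, log2 fold change ± SE). The summed levels were 12.9 to 436 against 2.73 to 145 FPKM for muscle, 156 to 294 against 89.3 to 281 FPKM for red cells and 0.77 to 0.84 against 0.39 to 0.49 FPKM for T and NK cells, of which 0 of 7 genes reached the minimum for testing. The part of these tissues in the macrophage values was not tested. The median was -0.19 for the 9 sensory neuron markers, of which 4 were lower at an unadjusted p under 0.05, and their part was not tested either. Medians were -0.05 for endothelial, 0.13 for fibroblast, -0.04 for SGC and -0.10 for myelinating Schwann cell markers, and 1 SGC marker was lower at an unadjusted p under 0.05. Of cells that also carry class II molecules, 1 of 5 B cell markers was tested, *Cd79a* (-0.72 ± 0.44). Of 6 genes listed for dendritic cells, 2 were tested, *Zbtb46* (-0.25 ± 0.17) and *Flt3* (0.12 ± 0.12; log2 fold change ± SE). *Flt3* was at 3.37 to 4.79 FPKM over all libraries. *Xcr1* (0.01 to 0.08 FPKM), *Itgax* (0.04 to 0.18), *Clec9a* (0.22 to 0.45) and *Cd209a* (0.15 to 0.55) did not reach the minimum. Which cells held the *Flt3* and *Zbtb46* RNA was not tested.

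**Figure D4:**
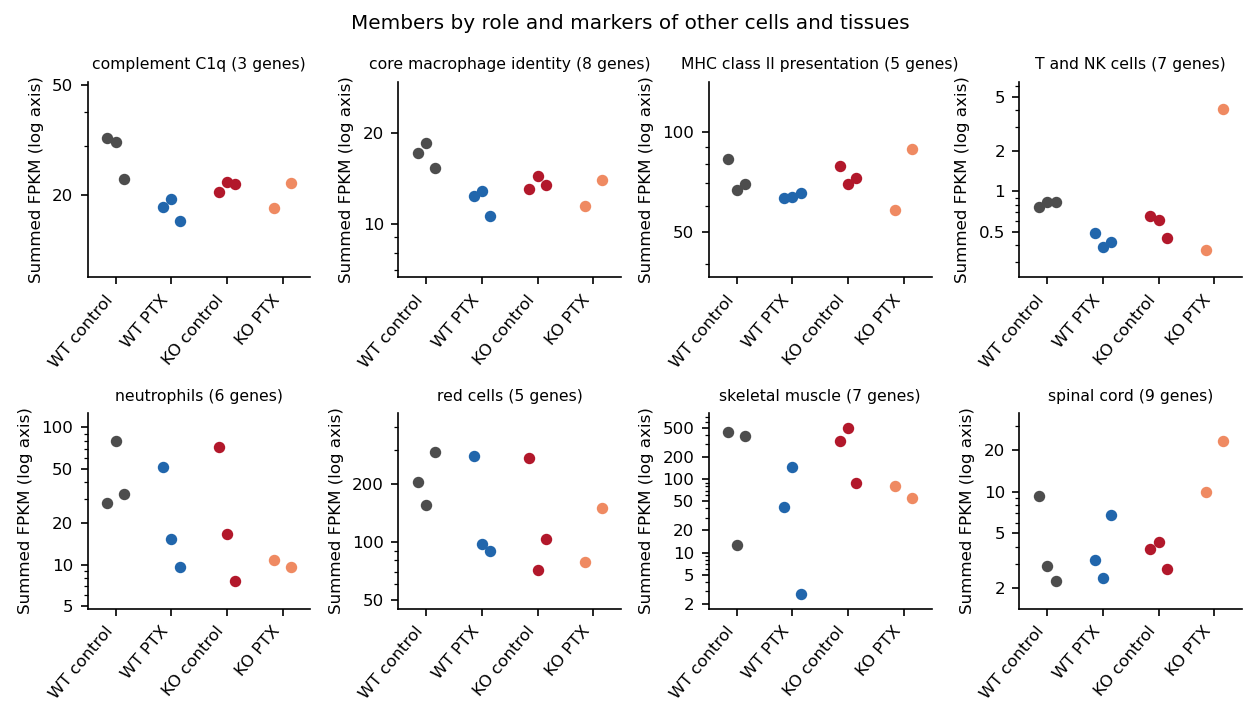
Summed FPKM per mouse, on log axes, of the C1q, core macrophage and class II genes and of markers of T and NK cells, neutrophils, red cells, skeletal muscle and spinal cord, 1 point per mouse in the 4 groups. C1q sums are 22.9 to 32.1 in WT controls and 16.1 to 19.3 in WT PTX mice, and KO PTX 3 stands out for T and NK cell (4.06) and spinal cord (23.3) markers.

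In KO mice, the differences after PTX depended on which of the 2 PTX mice was taken. By DESeq2, 0 of 29 genes had an adjusted p under 0.05, against 28 of all 15087 genes tested. With edgeR, 0 of 29 genes did (0.00663% of all genes). At an unadjusted p under 0.05, *Cx3cr1* (-0.48 ± 0.22), *C1qc* (-0.40 ± 0.17) and *Lyz2* (-0.37 ± 0.15; log2 fold change ± SE) were lower, 3 of 29 genes against 2.57% of all genes. Without KO PTX 2, *C1qc* was at -0.13 and *Lyz2* at -0.12, without KO PTX 3 they were at -0.66 and -0.61, and *Cx3cr1* was at -0.31 without KO control 2. The median over the 29 genes was -0.12, against -0.01 over all genes, with 19 negative and 10 positive. By role, the median was -0.05 for C1q, -0.09 for core macrophage genes, -0.09 for class II genes, -0.32 for monocyte and myeloid genes, -0.50 for resident macrophage genes, 0.16 for the Tyrobp and Fc receptor genes and -0.09 for microglial genes. In WT mice it was -0.81, -0.55, -0.11, -0.27, -0.30, -0.51 and -0.16 in the same order. Without *Itgam* and *Spi1*, the median of the core macrophage genes was -0.10 in KO and -0.55 in WT mice. Some estimates were farther from 0 than in WT mice, with *Cd163* at -0.68 ± 0.35, *Ccr2* at -0.59 ± 0.29, *Lyve1* at -0.50 ± 0.26 and *Fcgr3* at 0.47 ± 0.37, none of them at an unadjusted p under 0.05. The median over the 29 genes was 0.15 without KO PTX 2, -0.40 without KO PTX 3 and -0.39 without replicate 3. Without KO control 3, the library that did not match its label by *Xist*, it was -0.17, with 0 genes at an unadjusted p under 0.05. This count was 1 without KO control 1 or WT PTX 1, and 6 without WT control 2. Over all 15087 genes, the count in either direction was 469, 484, 540 and 762 in the same order, against 652 with all libraries. Both KO PTX mice were below all 3 KO controls for 8 of 29 genes (*Csf1r*, *Cx3cr1*, *Mrc1*, *Lyve1*, *C1qc*, *Ccr2*, *Cd14* and *Lyz2*), against 10.4% of all genes, and above them for *Aif1* and *Ctss*, 2 of 29 against 11.3% of all genes. *Aif1* had a log2 fold change of 0.66 ± 0.36 and *Ctss* of 0.34 ± 0.24, neither at an unadjusted p under 0.05. The summed FPKM of the 31 genes was 148 in KO PTX 2 and 189 in KO PTX 3, against 175 to 193 in KO controls. Beside these values, the median log2 fold change was 2.60 for the spinal cord markers, -1.72 for the muscle markers, -1.14 for 5 neutrophil markers, all of them negative, and -0.55 for 5 fibroblast markers, of which 4 were lower at an unadjusted p under 0.05. KO PTX 3 held the most T and NK cell RNA. Their part was not tested. The exact two-sided permutation test of 3 against 2 libraries, as run, cannot give a p below 0.2.

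**Figure D5:**
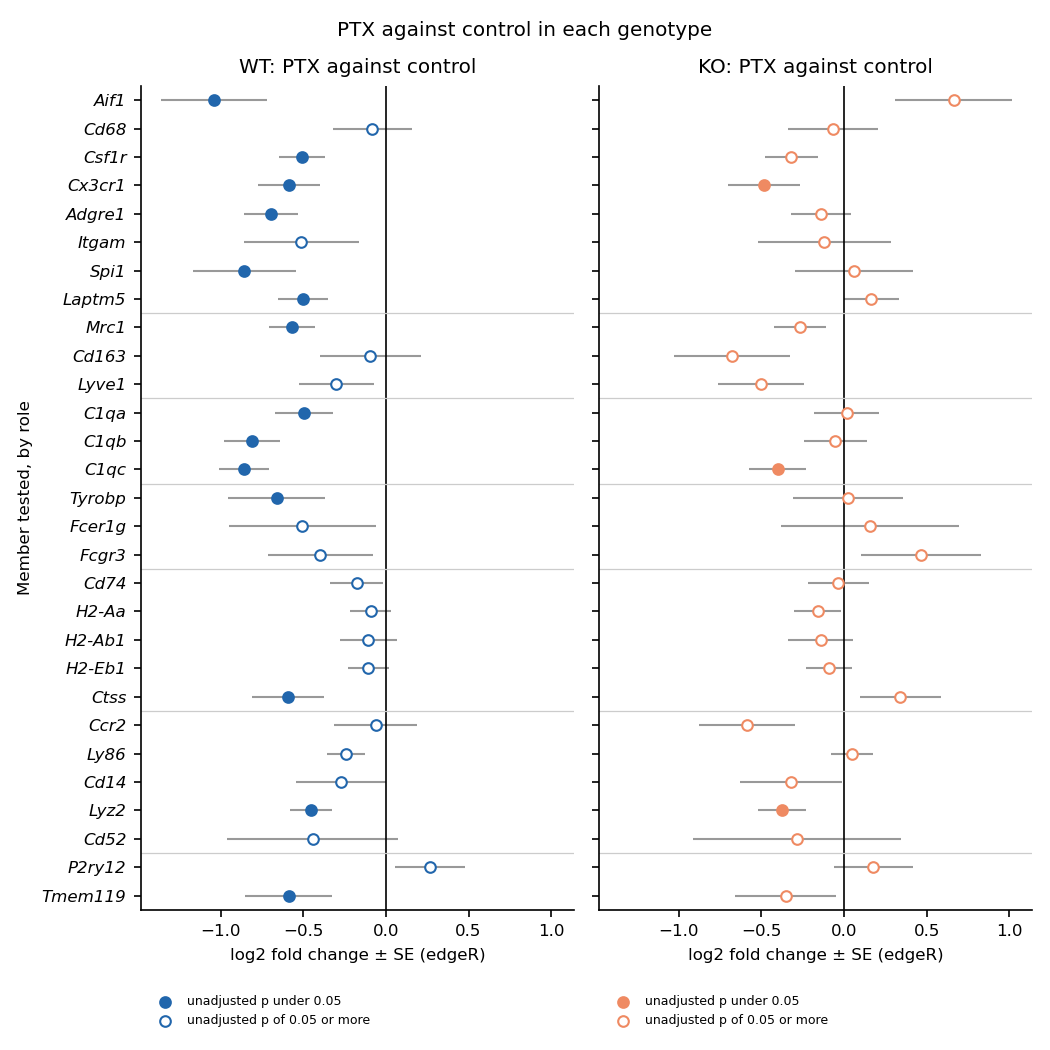
Log2 fold change of PTX against control (points) with its SE (lines) from edgeR for the 29 genes tested, in WT mice on the left and in KO mice on the right, in rows by role. Filled points have an unadjusted p under 0.05: 14 genes in WT mice and 3 in KO mice, all lower. Of all genes tested, 6.87% were lower at that p in WT mice and 2.57% in KO mice, where only 2 mice had received PTX. In WT mice 28 of 29 points are left of 0, and in KO mice 19 are. The interaction term had 0 of 29 genes at an adjusted p under 0.05 by edgeR.

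KO controls were compared with WT controls to see whether the genotype alone goes with other levels. By DESeq2, 0 of 29 genes had an adjusted p under 0.05, against 42 of all 15087 genes tested. With edgeR, 0 of 29 genes did (0.00663% of all genes), and the smallest adjusted p was 0.657. At an unadjusted p under 0.05, 7 genes were lower in KO mice, against 3.58% of all genes, and 0 were higher: *Aif1* (-0.92 ± 0.32), *Itgam* (-0.88 ± 0.35), *Fcgr3* (-0.84 ± 0.32), *Ctss* (-0.55 ± 0.22), *C1qc* (-0.52 ± 0.15), *C1qb* (-0.47 ± 0.17) and *Adgre1* (-0.42 ± 0.16; log2 fold change ± SE). *Itgam*, the integrin chain CD11b of macrophages and neutrophils, was at 0.78, 1.08 and 0.45 FPKM in WT controls, 0.81, 0.30 and 0.47 in WT PTX mice, 0.39, 0.46 and 0.37 in KO controls and 0.37 and 0.34 in KO PTX mice. Its WT control 3 overlapped with the KO controls. *Itgam* reached the minimum for testing only through the WT controls, so its difference is a description, and over the 27 genes that passed without them 6 were lower, with a median of -0.23. All 3 KO controls were below all 3 WT controls for 6 genes (*Aif1*, *Csf1r*, *Adgre1*, *C1qb*, *C1qc* and *Fcgr3*), against 4.73% of all genes. Median log2 fold changes were -0.26 over the 29 genes, 0.00 over all genes, -0.47 for C1q and 0.05 for the 5 class II genes. The count of 7 became 3 without WT control 2, and 4 without WT control 1, KO control 1 or KO control 3. Over all 15087 genes, the count in either direction was 1442, 886, 558 and 1487 in the same order, against 1138 with all libraries. *Fcgr3* was at -0.56 without KO control 3. In the same comparison, red cell markers had a median of -0.56 and neutrophil markers of -0.75, with 0 of either at an unadjusted p under 0.05. At that p, 2 of 5 endothelial markers were higher (median 0.21) and 2 of 9 sensory neuron markers lower (median -0.13), 1 SGC marker was lower, and 1 marker each of fibroblasts, muscle and spinal cord was higher. The part of these cells was not tested. This comparison and that of PTX in WT mice share the WT controls, so their values for *C1qc* (-0.52 and -0.86) or *Aif1* (-0.92 and -1.04) are not independent of each other.

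After PTX, the estimates for KO against WT mice lay on both sides of 0. By DESeq2, 0 of 29 genes had an adjusted p under 0.05, against 9 of all 15087 genes tested. With edgeR, 0 of 29 genes did (0.0133% of all genes). At an unadjusted p under 0.05 by edgeR, *Ly86* was higher in KO mice (0.34 ± 0.13, log2 fold change ± SE), 1 of 29 against 1.81% of all genes. The count at this unadjusted p was 3 without WT PTX 2, 2 without WT control 2 or KO control 2, and 0 without WT PTX 1. Over all 15087 genes, the count in either direction was 478, 601, 506 and 314 in the same order, against 535 with all libraries. The median over the 29 genes was 0.03, and it was 0.29 without KO PTX 2 and -0.23 without KO PTX 3. *C1qc* had a log2 fold change of -0.06 ± 0.17, *Csf1r* of -0.05 ± 0.16 and *Cd74* of 0.24 ± 0.18. Over both treatments, 0 of 29 genes differed between genotypes at an adjusted p under 0.05 by edgeR or by DESeq2. Of all 15087 genes tested, 0.0133% did by edgeR and 27 genes did by DESeq2. At an unadjusted p under 0.05 by edgeR, *Itgam* (-0.68 ± 0.27) and *C1qc* (-0.29 ± 0.11) were lower, 2 of 29 against 1.93% of all genes. *Ly86* was higher (0.20 ± 0.09), 1 of 29 against 1.82% of all genes. Over the 27 genes that passed without the WT controls, which leave out *Itgam*, 1 was lower. The 3 genes in all at that p, of 29, became 0 without WT control 2, 1 without WT PTX 1 and 5 without WT control 1. Over all 15087 genes, the count in either direction was 756, 413 and 813 in the same order, against 566 with all libraries. With 1 library or replicate 3 left out, the log2 fold change of *C1qc* ranged from -0.49 to -0.15 and that of *Ly86* from 0.11 to 0.26. Neutrophil markers had a median of -0.80 in this comparison and -0.82 between the PTX groups, where spinal cord markers had 2.49, and their part was not tested.

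Whether PTX acted differently in the 2 genotypes was tested by the interaction term. By DESeq2, 0 of 29 genes had an adjusted p under 0.05, against 12 of all 15087 genes tested. With edgeR, 0 of 29 genes did (0.00663% of all genes), and the smallest adjusted p of the list was 0.724. At an unadjusted p under 0.05, the difference between the PTX effects (KO minus WT) was positive for *Aif1* (1.70 ± 0.48), *Ctss* (0.94 ± 0.32), *C1qb* (0.75 ± 0.25), *Laptm5* (0.67 ± 0.22) and *Adgre1* (0.56 ± 0.24; log2 ± SE), 5 of 29 genes against 3.12% of all genes, and it was negative for 0. Without KO PTX 3 it was 0.61 for *Ctss*, 0.42 for *C1qb* and 0.40 for *Laptm5*, and without KO PTX 2 it was 1.25, 1.10 and 0.96. The median of this difference over the 29 genes was 0.24. It was 0.51 without KO PTX 2, -0.09 without KO PTX 3 and 0.07 without replicate 3. Beside this, the median difference was 3.42 for 4 spinal cord markers, of which 3 were higher at an unadjusted p under 0.05, 1.09 for 6 muscle markers, of which 1 was lower, and -0.53 for 5 fibroblast markers, of which 2 were lower. Their part was not tested. For the class II genes *H2-Aa*, *H2-Ab1* and *H2-Eb1* it was -0.07 ± 0.19, -0.03 ± 0.26 and 0.02 ± 0.19.

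Over both genotypes, 5 PTX libraries were compared with 6 controls. With edgeR, 0 of 29 genes had an adjusted p under 0.05 (0.0133% of all genes did), whereas DESeq2 gave 4 (*C1qc*, *Lyz2*, *Csf1r* and *Mrc1*), against 0.829% of all genes. At an unadjusted p under 0.05, 9 genes were lower and 0 higher, against 5.53% of all genes that were lower. They were *C1qc* (-0.63 ± 0.11), *Cx3cr1* (-0.53 ± 0.14), *Tmem119* (-0.47 ± 0.20), *C1qb* (-0.43 ± 0.13), *Adgre1* (-0.42 ± 0.12), *Mrc1* (-0.42 ± 0.10), *Lyz2* (-0.41 ± 0.10), *Csf1r* (-0.41 ± 0.11) and *Lyve1* (-0.40 ± 0.17; log2 fold change ± SE). All 5 PTX libraries were below all 6 controls for *Csf1r*, *Mrc1* and *C1qc*, 3 of 29 genes against 0.378% of all genes, with an exact two-sided permutation p of 0.00433 each, the smallest that 6 against 5 libraries can give and not adjusted over the genes. The median was -0.31, with 27 of 29 negative. This median was -0.12 without KO PTX 2 and -0.46 without replicate 3. Without KO PTX 2, *Tmem119* was at -0.30, *C1qb* at -0.27 and *Csf1r* at -0.26, and *Lyve1* was at -0.24 without WT control 2. In the same comparison the median was -2.16 for 6 muscle markers, of which 4 were lower at an unadjusted p under 0.05, -1.06 for 5 neutrophil markers, of which 1 was lower, and -0.21 for 5 fibroblast markers, of which 2 were lower. Of 9 sensory neuron markers, 4 were lower, with a median of -0.07, and 1 SGC and 1 myelinating Schwann cell marker were lower. The median of 4 spinal cord markers, all with positive estimates, was 0.93, and 1 of them was higher. The part of these cells was not tested.

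Genes that act on macrophages or are shared with them were taken from 3 further lists with 35 genes tested. By edgeR, 0 of the 35 had an adjusted p under 0.05 in any of the 7 comparisons. For PTX in WT mice, 8 of 35 were lower at an unadjusted p under 0.05, against 6.87% of all genes. By DESeq2, *Cd63*, a lysosomal tetraspanin, and *Stab1*, a scavenger receptor, passed for PTX in WT (2 of 35, against 2.05% of all genes) and for PTX over both genotypes (2 of 35, against 0.829%). Of 7 growth factors and attractants tested, 3 were lower at an unadjusted p under 0.05 in WT PTX mice and 0 higher: the monocyte attractants *Ccl2* (-1.25 ± 0.48) and *Ccl12* (-1.17 ± 0.29), and *Csf1* (-0.87 ± 0.27; log2 fold change ± SE). *Csf1* was at 6.09, 11.32 and 3.51 FPKM in WT controls, 3.62, 4.39 and 2.94 in WT PTX mice, 3.31 to 5.20 in KO controls and 4.42 and 4.05 in KO PTX mice. WT control 2 was highest, WT control 3 lay within the other groups, and without WT control 2 the log2 fold change was -0.45. Of 21 other macrophage genes tested, 5 were lower and 0 higher, against the same 6.87% of all genes, with *Cbr2* (-0.56 ± 0.25) and *Stab1* (-0.55 ± 0.14) at one end and *Cd63* (-0.37 ± 0.08) and *Coro1a* (-0.27 ± 0.12) at the other. Of 14 further genes of the class II machinery, 7 were tested (*Rfx5*, *Rfxap*, *Rfxank*, *H2-DMa*, *H2-DMb1*, *Ifi30* and *Lgmn*). The costimulatory genes *Cd80*, *Cd86* and *Cd40* did not reach the minimum for testing. Of the 7, 0 had an unadjusted p under 0.05 in WT mice, with a median of -0.12. In KO mice, *Cx3cl1*, the ligand of the *Cx3cr1* receptor that neurons make, was higher after PTX (0.91 ± 0.24) and *Ifi30*, a thiol reductase of antigen processing, lower (-0.57 ± 0.21), each at an unadjusted p under 0.05, 1 of 35 each against 1.75% of all genes higher and 2.57% lower. *Cx3cl1* was at 2.46 and 5.02 FPKM in KO PTX mice 2 and 3, against 1.46 to 1.96 in KO controls. KO PTX 3, which had 23.3 FPKM of spinal cord markers, was highest, and the part of spinal cord RNA was not tested. The log2 fold change ranged from 0.51 without replicate 3 to 1.26 without KO PTX 2. *Ifi30* was at -0.37 without KO control 1.

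Between KO and WT controls, 4 of the 35 genes were lower at an unadjusted p under 0.05, against 3.58% of all genes, and 1 was higher, against 3.96%. *Csf1* was lower (-0.72 ± 0.27, log2 fold change ± SE, and -0.29 without WT control 2), as were *Cbr2* (-0.73 ± 0.25), *Stab1* (-0.37 ± 0.14) and *Cd63* (-0.32 ± 0.08). *Mertk*, a receptor for the uptake of dying cells, was higher (0.47 ± 0.20, and 0.18 without KO control 1). After PTX, 1 of 35 genes differed at that p, against 1.81% of all genes that were higher: *Cx3cl1* was higher in KO mice (0.85 ± 0.24, and 0.50 without KO PTX 3). Over both treatments, *Stab1* (-0.25 ± 0.11, and -0.15 without KO PTX 2) and *Cd63* (-0.22 ± 0.06) were lower, 2 of 35 against 1.93% of all genes. The difference between the PTX effects, KO minus WT, was positive at an unadjusted p under 0.05 for 3 of 35 genes, against 3.12% of all genes. These were *Cx3cl1* (1.12 ± 0.32), *Csf1* (1.06 ± 0.41, and 0.60 without WT control 2) and *Lgmn*, a lysosomal protease (0.31 ± 0.14). For PTX over both genotypes, 7 of 35 were lower at that p and 0 higher, against 5.53% of all genes that were lower. They included *Ccl12* (-0.76 ± 0.22), *Ifi30* (-0.41 ± 0.14) and 5 of the other macrophage genes, with *Stab1* (-0.43 ± 0.11) and *F13a1* (-0.33 ± 0.12) at one end and *Axl* (-0.19 ± 0.08, and -0.11 without KO PTX 2) and *Cd9* (-0.11 ± 0.04) at the other.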

How the data were processed

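Poly(A) RNA of DRGs from 11 mice was sequenced with a strand-specific kit. The authors deposited 1 table for all libraries with FPKM, normalized by the authors for gene length and depth, and with estimated counts, which were deposited unscaled. Per the submitters' processing notes, cutadapt, FastQC, HISAT2 and StringTie were used with the build mm10. Versions and the strand setting of the counting are not given in the sources used here. Coordinates of 25 of the 31 genes were identical in GENCODE M21, and 7 overlapped a gene on the same strand and 5 one on the other strand. Groups were taken from the labels. KO PTX mice are numbered 1 and 2 in titles but 2 and 3 in descriptions, and the descriptions were followed. All 31 genes and the other lists were chosen with earlier results of these data known.

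The rounded counts were fitted with edgeR 4.0.16 (R 4.3.3) by the quasi-likelihood test with TMM. The fit held all libraries, with sex as labelled for a covariate, and 15087 genes whose mean FPKM reached 0.5. Benjamini-Hochberg adjustment ran over all of these, with a threshold of 0.05. The SE was taken from the estimate and its F statistic (absolute log2 fold change over root F). Alternatives covered the filter (none, or filterByExpr), the scaling (DESeq2 size factors, or library totals alone), DESeq2 1.42.0, no sex covariate, a replicate block, each library left out, replicate 3 left out, and limma 3.58.1 on log2(FPKM + 1) or log2(FPKM + 0.1). The fit was tested on simulated data, but the outcome is not given here and no result rests on it. Single genes were compared by exact permutation of FPKM. P-values measure the spread between these mice. All 31 genes are named by role. Values in every library are given for 1 gene of each role (*Csf1r*, *Mrc1*, *C1qa*, *Tyrobp*, *Cd74*, *Lyz2* and *P2ry12*) and for up to 10 genes per comparison with the smallest unadjusted p under 0.05. Of the 3 further lists of genes that act on macrophages or are shared with them, the 2 highest and 2 lowest log2 fold changes among such genes are given. Where a list had fewer such genes, all are given. Promoters came from RefSeq (GRCm38.p6). Tables and plots were made in Python 3.11.15 with pandas 2.3.3, scipy 1.17.1, numpy 2.4.6 and matplotlib 3.10.9.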

Additional observations from a re-analysis of the deposited data

Results flagged for a closer look

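*Aif1* had opposite differences after PTX in the 2 genotypes. All 3 WT PTX mice were below all 3 WT controls (0.32 to 0.91 against 0.97 to 1.67 FPKM), which held for 7.37% of all genes. Both KO PTX mice were above all 3 KO controls (0.93 and 1.01 against 0.61 to 0.67 FPKM), which held for 11.3% of all genes. The difference in KO mice alone had an unadjusted p of 0.0917 by edgeR. Spinal cord markers summed to 9.92 and 23.3 FPKM in KO PTX mice 2 and 3, the highest sums of all libraries, and their part was not tested. The PTX effect in KO mice minus that in WT mice was 1.70 ± 0.48 on the log2 scale (SE). With edgeR its unadjusted p was 0.00521 and its adjusted p over all genes 0.724, so the difference did not pass the threshold. The alternatives gave adjusted p-values of 0.328 to 0.988.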

How the results depend on the processing

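With edgeR or limma, 0 genes of the list had an adjusted p under 0.05 in any comparison under any of the 20 alternatives other than DESeq2, which gave 6 for PTX in WT and 4 for PTX over both genotypes; the cause was not tested. On log2(FPKM + 1), which compresses low genes, the medians were -0.30 for PTX in WT and -0.15 for PTX over both genotypes. With 1 library or replicate 3 left out, the median ranged from -0.57 to -0.43 for PTX in WT, from -0.40 to 0.15 for PTX in KO, from -0.34 to -0.21 for KO against WT controls, from -0.23 to 0.29 for KO against WT after PTX, from -0.085 to 0.51 for the interaction, from -0.46 to -0.12 for PTX over both genotypes and from -0.22 to 0.050 for KO over both treatments. The ends of the ranges that involve KO PTX mice came from leaving out 1 of these 2 mice or replicate 3, and the lone remaining mouse is then assumed to vary like the other groups. The same leave-outs turned the sign of 6 of 29 genes for PTX in WT (*Ccr2*, *Cd163*, *Cd68*, *Lyve1*, *H2-Ab1* and *H2-Eb1*), 18 for PTX in KO, 10 for KO against WT controls, 18 after PTX, 14 for the interaction, 10 for PTX over both genotypes and 19 for KO over both treatments, and 0 of these were at an unadjusted p under 0.05 by edgeR in that comparison with all libraries. *H2-Ab1* ranged from -0.20 to 0.044 and *H2-Eb1* from -0.19 to 0.026 for PTX in WT. Whether replicate numbers pair the mice could not be decided from correlations of the deviations from group means. Same-numbered libraries of different groups had correlations of -0.23 to 0.23 (15 pairs, 5 over 0.1, mean 0.05). The mean was -0.03 for the 30 other pairs. The deviations of the 2 KO PTX libraries mirror each other, and replicate 3 is also the one labelled female. With the numbers as a replicate block, 0 genes passed in any comparison, and the median for PTX in WT was -0.50. Counts of 31 to 149 for *Aif1* and 42 to 119 for *Trem2* limit their precision.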
